A study of Rattus norvegicus with 6 samples.

Results

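The genes described here encode the protein parts of the spliceosome and the RNA-binding proteins that steer it. They were chosen by symbol, with earlier results of these data known. Every listed gene was taken whose symbol begins with Snrp, Lsm and a digit, Sf3a or Sf3b, Srsf and a digit, Hnrnp, Prpf and a digit, or U2af. These were 81 of the 12121 listed genes, with 80 different symbols, since Hnrnpa3 stands for 2 genes. Among them were 48 genes of core snRNP proteins, 3 of the U2AF family, 10 of SR proteins and 20 of hnRNPs. The genes were counted by RNA-seq of C6 cells, an established glioma line of the rat. One group of 3 libraries came from C6 cells overexpressing Aqp1 (C6-AQP1), whose insert was carried by a pCDH vector under a CMV promoter, and the other group of 3 libraries came from C6 control cells. The sources leave unstated if the control cells held an empty vector, if C6-AQP1 was 1 clone, and if the 3 libraries of a group were separate cultures. The p-values therefore measure only how far these libraries differ, and that difference may be technical. The comparison asks how the expression of splicing genes differs with and without added AQP1, a water channel of the plasma membrane.

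An intron is removed by the spliceosome, which is assembled anew on each pre-mRNA from small nuclear ribonucleoproteins (snRNPs), each built on a small nuclear RNA. A ring of Sm proteins holds the RNA of the U1, U2, U4 and U5 snRNPs, and a ring of the related LSm proteins holds U6 RNA. SR proteins, which carry a domain rich in arginine and serine, mostly favour the use of an exon, while many hnRNPs repress it or package the transcript. Values are in CPM, the count of a gene scaled to the library total after TMM normalization, given in the order of replicates 1, 2 and 3, and a log2 fold change is C6-AQP1 minus C6 control from edgeR. A gene rose or fell where the adjusted p of edgeR's quasi-likelihood test was under 0.05, and a DEG also changed by more than 2-fold. The counts are of whole genes, so they hold no measure of exon use or intron retention.

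The libraries held between 19054251 and 52725877 counts, and replicate 1 was the shallowest of both groups. Aqp1 (ENSRNOG00000011648) had 1052, 1064 and 1057 CPM in C6-AQP1 and 347, 352 and 349 CPM in C6 control cells, so the libraries matched their labels. Of 8 glial markers 7 were listed and all 7 rose, Gfap the most, and their summed level was 5719 to 5926 CPM in C6-AQP1 and 3914 to 3995 CPM in C6 control cells, while Aqp4 was not listed. Of 7 neuronal markers, 6 were listed, of which Map2, Snap25 and Syt1 rose, Nefm fell (log2 fold change -2.02), and Nefl and Tubb3 did not pass the test, and Rbfox3 was not listed. Their summed level was 295 to 301 CPM in C6-AQP1 and 130.1 to 133 CPM in C6 control cells, but without Map2 it was 44.5 to 45.3 and 49.99 to 50.9 CPM. Of 8 microglial markers only Tmem119 was listed (18.7 to 21.1 and 29.1 to 32.1 CPM), and of 7 endothelial markers only Tek (7.94 to 8.55 and 2.19 to 3.14 CPM). The part of these marker changes in the results below was not tested. In bulk RNA, fewer cells that express a gene and less of its RNA per cell cannot be told apart.

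Most splicing genes were lower in C6-AQP1 cells by edgeR's quasi-likelihood test with Benjamini-Hochberg adjustment over all 12121 genes. Of the 81 genes, 65 fell, 11 rose and 5 did not pass the test. The falls made up 80.2% of the members, against 40.7% of all tested genes, and the rises 13.6% against 40.8%. Passing the test was common in itself, at 81.5% of all tested genes. The median log2 fold change over the members was -0.62, while that over all genes was 0.00. The C6-AQP1 libraries lay entirely on one side of the control libraries in 76 of the 81 members (93.8%), against 82.5% of all genes. Groups that lie apart were thus common in these data, which bears on each gene described below. Of the members, 1 (Prpf39) was a DEG in the higher direction and 14 in the lower direction, where 9.74% and 4.35% of all tested genes were such DEGs.

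The classes differed in size of change, as a description without a test of the difference between them. The core snRNP class was set by symbol, so it also holds Lsm1, Lsm12, Lsm14a and Lsm14b, which have other tasks, and 2 barely counted Sm copies. Core snRNP proteins had 35 falls and 8 rises among 48 genes, with a median log2 fold change of -0.67. SR proteins had 8 falls and 2 rises among 10 genes, with a median of -0.46. For hnRNPs there were 19 falls and 1 rise among 20 genes, with a median of -0.64. The core class was itself split. The Sm proteins and LSm2 to LSm8 had a median of -1.11 over 14 genes, while the 13 Prpf genes had a median of 0.12. Of the Prpf genes 7 rose (53.8%), against 40.8% of all tested genes. Of the 14 DEGs in the lower direction, 10 were genes of the Sm proteins and LSm2 to LSm8. Their number was 11 without C6-AQP1 replicate 3, where Snrpf, Snrpg and a rarely counted Hnrnpa3 gene changed by less than 2-fold. The summed level of all 81 members was 10872, 10741 and 10727 CPM in C6-AQP1 and 14545, 14449 and 14378 CPM in C6 control cells.

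**Figure D1:**
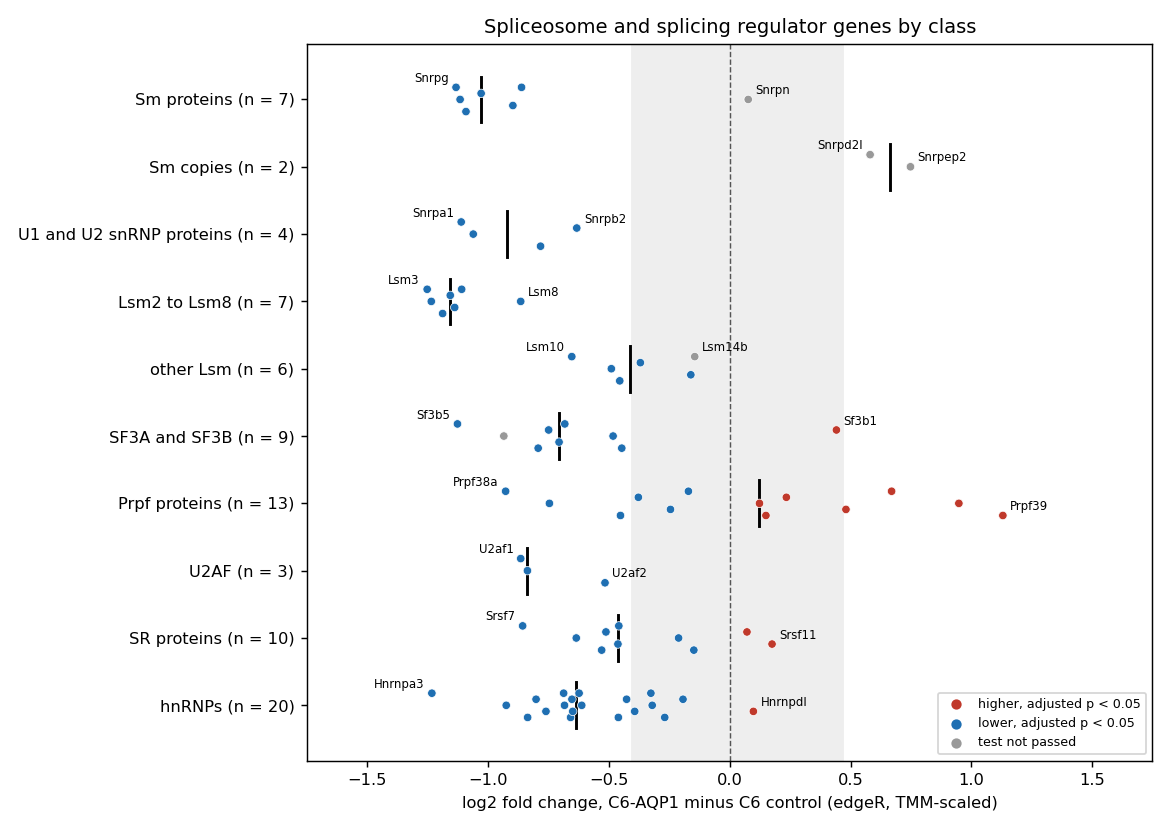
Log2 fold changes (x axis) of the 81 members by class (y axis). Each point is a gene, coloured by the call, the black bar is the median of the class, and the dashed line and grey band are the median and the interquartile range of all 12121 genes. The Sm proteins and LSm2 to LSm8 lie near -1 except Snrpn at 0.08, the Prpf genes range from -0.93 to 1.13, and most SR proteins and hnRNPs lie between those extremes. The point labelled Hnrnpa3 at -1.23 is the rarely counted copy of that gene.

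Of the 7 listed genes of the Sm ring, 6 fell by a similar factor. Snrpb encodes SmB and its longer form, and had 91.0, 86.3 and 89.9 CPM in the C6-AQP1 libraries and 187, 193 and 188 CPM in the C6 control libraries, a log2 fold change of -1.09 (edgeR, adjusted p = 2.2e-19, standard error 0.03). Snrpd1, the SmD1 gene, had 52.6, 50.7 and 47.1 CPM in C6-AQP1 and 113, 108 and 104 CPM in C6 control cells, a log2 fold change of -1.12. The groups lay far apart in both genes. Snrpd2, for SmD2, had 44.4, 39.6 and 39.2 CPM in C6-AQP1 and 78.8, 74.5 and 74.7 CPM in C6 control cells, a log2 fold change of -0.90. Snrpd3, for SmD3, had 41.6, 37.8 and 37.0 CPM in C6-AQP1 and 67.2, 72.2 and 69.7 CPM in C6 control cells, a log2 fold change of -0.86. Over these 4 genes the C6-AQP1 mean was between 46.3% and 55.7% of the control mean. Snrpf, for SmF, had 29.1, 22.6 and 22.2 CPM in C6-AQP1 and 50.3, 50.6 and 46.6 CPM in C6 control cells. Snrpg, for SmG, had 17.3, 13.5 and 11.2 CPM in C6-AQP1 and 31.6, 30.3 and 27.6 CPM in C6 control cells. For both, replicate 1 was the highest of the C6-AQP1 libraries and the groups still did not overlap, with log2 fold changes of -1.03 and -1.13 (edgeR, adjusted p = 9.9e-05 and 0.0013). Across the alternatives, the adjusted p of Snrpg ran up to 0.0101. Snrpe, the gene of SmE, was not analysed here.

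Snrpn was the exception in the ring. It encodes SmN, a close relative of SmB that is made from an imprinted locus and is best known from brain. Snrpn had 45.6, 48.5 and 44.8 CPM in C6-AQP1 and 45.1, 43.6 and 43.6 CPM in C6 control cells, so the groups overlapped, and its log2 fold change was 0.08 (edgeR, adjusted p = 0.0787, standard error 0.04). That adjusted p ranged from 0.00417 to 0.44 over the alternatives, and Snrpn would count as a rise without C6-AQP1 replicate 3 (adjusted p = 0.0369), without replicate 1 of both groups (adjusted p = 0.0309) and with scaling to library totals alone (adjusted p = 0.00417). The ratio of Snrpb to Snrpn CPM was 1.997, 1.78 and 2.01 in the C6-AQP1 libraries and 4.14, 4.44 and 4.31 in the controls. This ratio is not corrected for transcript length, so only its change between groups can be read. SmB and SmN share much of their coding sequence, and RSEM divides reads that fit both, which makes the levels of both genes less certain. The upstream sequences of this pair are shown because they share a protein family and part ways in the counts. They are from RefSeq on the GRCr8 build and give the 100 bases before the annotated start, 5′ to 3′ on the gene's strand, with CpG dinucleotides in capitals. That of Snrpb is chr3:137832480-137832579 on the minus strand and has 6 CpG. That of Snrpn is chr1:120338920-120339019 on the minus strand and has 1 CpG.
Snrpb: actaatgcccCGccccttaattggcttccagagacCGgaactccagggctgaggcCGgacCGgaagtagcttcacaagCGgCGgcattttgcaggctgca
Snrpn: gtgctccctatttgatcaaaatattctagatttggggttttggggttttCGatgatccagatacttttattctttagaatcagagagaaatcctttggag

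Over the 250 bases before the start, Snrpb has 8 CpG and Snrpn 7, so the difference within the last 100 bases is not seen in the wider window. Both are below the median of 18 over the 72 member symbols with a sequence and the median of 17 over 8636 listed symbols. Promoter activity was not measured in these libraries.

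The 4 Snrp genes of proteins that belong to 1 snRNP fell as well. Among snRNP proteins outside the symbol rule, Snrnp70 fell by less, with a log2 fold change of -0.13, and Snrnp200 did not pass the test. Snrpa1, for the A' protein of the U2 snRNP, had 27.9, 27.7 and 27.5 CPM in C6-AQP1 and 60.2, 60.7 and 58.7 CPM in C6 control cells, a log2 fold change of -1.11 (edgeR, adjusted p = 4.8e-17, standard error 0.04). Its partner, the B'' protein, is encoded by Snrpb2, which had 48.8, 45.8 and 46.6 CPM in C6-AQP1 and 74.9, 72.7 and 71.0 CPM in C6 control cells, the smallest change of the 4 at -0.63. In U1, Snrpc encodes the C protein, which helps to recognise the 5' splice site, and had 32.0, 34.5 and 32.3 CPM in C6-AQP1 and 66.6, 71.3 and 68.5 CPM in C6 control cells, a log2 fold change of -1.06. Snrpa, for the A protein, which binds a loop of U1 RNA, had 30.2, 28.8 and 28.98 CPM in C6-AQP1 and 49.0, 50.3 and 51.1 CPM in C6 control cells, a log2 fold change of -0.78. In all 4 genes every C6-AQP1 library was below every control library, while the groups lay apart in 82.5% of all genes.

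The genes of LSm2 to LSm8 had larger fitted falls than the other LSm genes. LSm2 to LSm8 form the ring on U6 RNA, and all 7 genes fell, with log2 fold changes from -1.25 to -0.87. Lsm3 had 21.9, 19.8 and 19.6 CPM in C6-AQP1 and 49.0, 49.6 and 46.1 CPM in C6 control cells, a log2 fold change of -1.25 (edgeR, adjusted p = 4.4e-16, standard error 0.05). Lsm2 had 20.8, 23.5 and 23.4 CPM in C6-AQP1 and 52.1, 51.1 and 49.7 CPM in C6 control cells, a log2 fold change of -1.16. Lsm4 had 35.9, 36.5 and 36.3 CPM in C6-AQP1 and 81.4, 80.7 and 77.9 CPM in C6 control cells, a log2 fold change of -1.14. These 3 genes had tight libraries, and the C6-AQP1 means were between 42.3% and 45.3% of the control means. Lsm5 had 8.45, 7.58 and 6.78 CPM in C6-AQP1 and 18.4, 18.6 and 16.1 CPM in C6 control cells, a log2 fold change of -1.24. Lsm7 had 8.35, 8.57 and 7.30 CPM in C6-AQP1 and 19.3, 19.3 and 16.6 CPM in C6 control cells, a log2 fold change of -1.19. Both had under 20 CPM in every library, and the groups were apart. Lsm8, the subunit that is found only in the nuclear ring, had 43.2, 35.5 and 35.2 CPM in C6-AQP1 and 74.0, 68.3 and 63.0 CPM in C6 control cells, with C6-AQP1 replicate 1 above the other two of its group. Lsm6 had few reads, with 3, 13 and 13 counts in C6-AQP1 and 19, 22 and 33 in C6 control cells, which is 0.154, 0.315 and 0.307 and 0.853, 0.425 and 0.645 CPM. Its fall (log2 fold change -1.11, adjusted p = 0.00999 from edgeR) ended without replicate 1 of both groups (adjusted p = 0.0851, with 0.00458 to 0.0851 over all alternatives).

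LSm proteins with other tasks had smaller fitted changes. Lsm1 takes the place of Lsm8 in the cytoplasmic ring that promotes mRNA decapping, and its log2 fold change was -0.49 (edgeR, adjusted p = 2.0e-07). Lsm10 and Lsm11 belong to the U7 snRNP, which trims the ends of histone mRNAs. Lsm10 had 3.18, 2.37 and 3.45 CPM in C6-AQP1 and 5.16, 4.58 and 4.46 CPM in C6 control cells, with the groups apart and a log2 fold change of -0.65. Lsm11 had a log2 fold change of -0.46. Lsm12 and Lsm14a, the latter a protein of P-bodies, had -0.37 and -0.16 on the same scale. Lsm14b, the paralogue of Lsm14a, had 20.1, 21.9 and 19.8 CPM in C6-AQP1 and 19.6, 23.4 and 24.5 CPM in C6 control cells, so its groups overlapped and it did not pass the test (log2 fold change -0.15, adjusted p = 0.0757 from edgeR). Its adjusted p was between 0.00150 and 0.38 over the alternatives, and it passed with limma-voom, with the replicate block, without replicate 1 of both groups, and without C6-AQP1 replicate 2 (adjusted p = 0.043) or C6 control replicate 1 (adjusted p = 0.00379). The median of these 6 genes was -0.41, and that of LSm2 to LSm8 was -1.16.

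**Figure D2:**
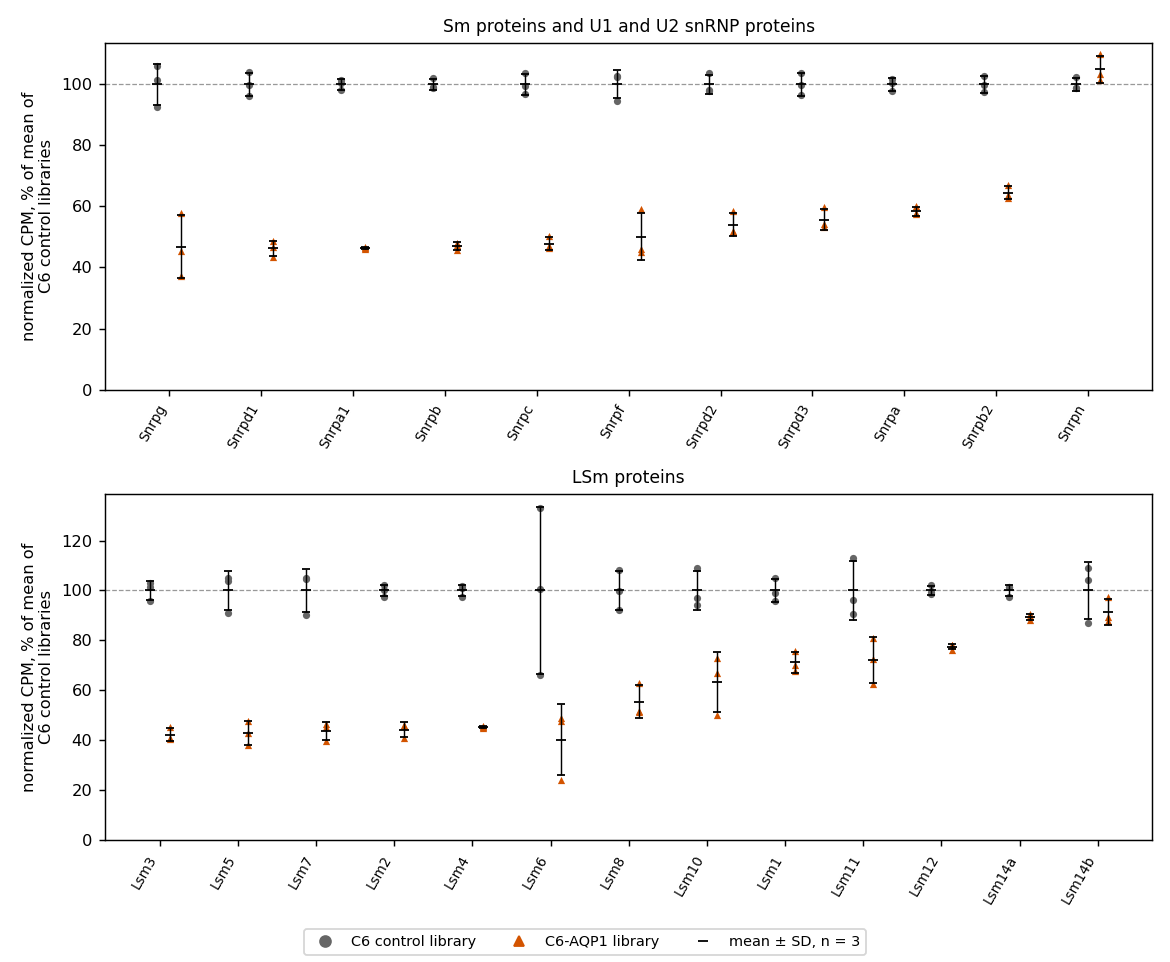
Normalized CPM of each library as a percentage of the mean of the C6 control libraries (y axis) for the Sm, U1 and U2 snRNP genes (top) and the LSm genes (bottom), ordered by log2 fold change. Circles are C6 control and triangles C6-AQP1 libraries, with the mean and SD of 3 libraries. Sm and LSm2 to LSm8 genes sit near or below 60% in C6-AQP1, Snrpn and Lsm14b overlap with the controls, and Lsm6 has the widest error bars.

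A further 2 listed genes, Snrpd2l and Snrpep2, carry names of Sm copies, and the table of RefSeq genes used for the names gives Snrpd2l as a pseudogene. They had 10 and 3 counts over the C6-AQP1 libraries and 8 and 2 over the controls, too few to show a difference, and neither passed the test.

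In the U2 snRNP, the SF3A and SF3B complexes hold U2 RNA on the branch site. Of these 9 genes, 7 fell, 1 rose and 1 did not pass the test. Sf3b1, the large subunit that wraps around the branch site and is the target of splicing inhibitors, was the gene that rose. It had 866, 864 and 857 CPM in C6-AQP1 and 646, 629 and 630.0 CPM in C6 control cells, a log2 fold change of 0.44 (edgeR, adjusted p = 1.5e-15, standard error 0.02), and every C6-AQP1 library was above every control library. Its small partner Sf3b5 went the other way, with 26.1, 27.0 and 26.4 CPM in C6-AQP1 and 57.3, 59.3 and 57.3 CPM in C6 control cells and a log2 fold change of -1.13 (edgeR, adjusted p = 6.4e-17, standard error 0.04). The ratio of Sf3b1 to Sf3b5 CPM therefore went from 11.3, 10.6 and 11.0 in the controls to 33.2, 32.0 and 32.5 in C6-AQP1. Sf3b3, a scaffold of the complex, had 109, 112 and 115 CPM in C6-AQP1 and 195, 193 and 195 CPM in C6 control cells, a log2 fold change of -0.79. Sf3b4 binds pre-mRNA beside the branch site and had 56.3, 58.1 and 58.1 CPM in C6-AQP1 and 91.2, 92.8 and 93.3 CPM in C6 control cells, a log2 fold change of -0.68. In both, the libraries of a group lay close together and the groups far apart. Sf3b2, the partner of Sf3b4, had a log2 fold change of -0.48. In SF3A, which bridges SF3B and the rest of U2, Sf3a3 had 65.2, 66.4 and 66.1 CPM in C6-AQP1 and 113, 109.6 and 111 CPM in C6 control cells, a log2 fold change of -0.75. Sf3a2 had 25.9, 26.8 and 26.9 CPM in C6-AQP1 and 39.4, 43.9 and 45.9 CPM in C6 control cells, a log2 fold change of -0.71, and Sf3a1 had one of -0.45. The groups did not overlap in any of these 8 genes, nor in 82.5% of all genes. Sf3b6, which contacts the branch adenosine, had only 6 counts over the C6-AQP1 libraries and 14 over the controls. No difference was detectable on so few counts (edgeR, adjusted p = 0.306).

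U2AF recognises the 3' splice site before U2 binds, and its 3 genes fell. U2af1, the small subunit that reads the AG at the end of the intron, had 53.1, 46.7 and 45.0 CPM in C6-AQP1 and 86.9, 87.5 and 86.2 CPM in C6 control cells. U2af2, the large subunit on the polypyrimidine tract, had 137, 142 and 141 CPM in C6-AQP1 and 206, 199 and 198 CPM in C6 control cells. The relative of the small subunit, U2af1l4, had 7.68, 8.04 and 7.68 CPM in C6-AQP1 and 15.3, 13.4 and 13.6 CPM in C6 control cells. The log2 fold changes were -0.87, -0.52 and -0.84 in this order (edgeR, adjusted p = 2.7e-11, 2.1e-14 and 1.2e-09). In C6-AQP1, replicate 1 was the highest of the 3 for U2af1, while for U2af2 it was the lowest.

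The Prpf genes went both ways, with 7 rises (53.8%) and 6 falls (46.2%) among 13, against 40.8% and 40.7% of all tested genes. The largest rise among all 81 members was that of Prpf39, a protein linked to U1, with 51.3, 52.0 and 52.7 CPM in C6-AQP1 and 24.7, 23.5 and 23.5 CPM in C6 control cells, a log2 fold change of 1.13 (edgeR, adjusted p = 1.2e-16, standard error 0.04). Prpf4b, a kinase that phosphorylates proteins of the tri-snRNP, had 163, 157 and 163 CPM in C6-AQP1 and 86.4, 82.2 and 82.7 CPM in C6 control cells, a log2 fold change of 0.95 (edgeR, adjusted p = 4.1e-18, standard error 0.03). With scaling to library totals alone it passed 2-fold as well. Prpf40b, a U1-linked protein with WW domains, had 27.3, 29.2 and 29.8 CPM in C6-AQP1 and 18.3, 17.5 and 18.9 CPM in C6 control cells, a log2 fold change of 0.67. In each of the 3 genes that rose here, the lowest C6-AQP1 library was well above the highest control library. Prpf18, a factor of the second catalytic step, had a log2 fold change of 0.48, and Prpf38b, a protein with an SR-like tail, 0.23. The largest fall was that of Prpf38a, a factor of spliceosome activation, with 36.6, 35.0 and 35.4 CPM in C6-AQP1 and 67.5, 68.3 and 66.9 CPM in C6 control cells and a log2 fold change of -0.93 (edgeR, adjusted p = 3.5e-16, standard error 0.04).

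Within the U4/U6.U5 tri-snRNP the genes also divided. Prpf31, which locks U4 RNA to the particle, had 27.9, 31.2 and 30.4 CPM in C6-AQP1 and 53.3, 48.9 and 50.2 CPM in C6 control cells, a log2 fold change of -0.75. Prpf3 and Prpf4, which sit on the U4/U6 duplex, had log2 fold changes of -0.45 and -0.38. Prpf6, which bridges to U5, had 0.15, and Prpf8, the scaffold of the catalytic centre, 0.12. Prpf8 had 603, 632 and 609.8 CPM in C6-AQP1 and 555, 571 and 568 CPM in C6 control cells, so the groups were apart by a small margin (edgeR, adjusted p = 1.1e-05). Prpf19, the ubiquitin ligase of the Prp19 complex, had a log2 fold change of -0.25.

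**Figure D3:**
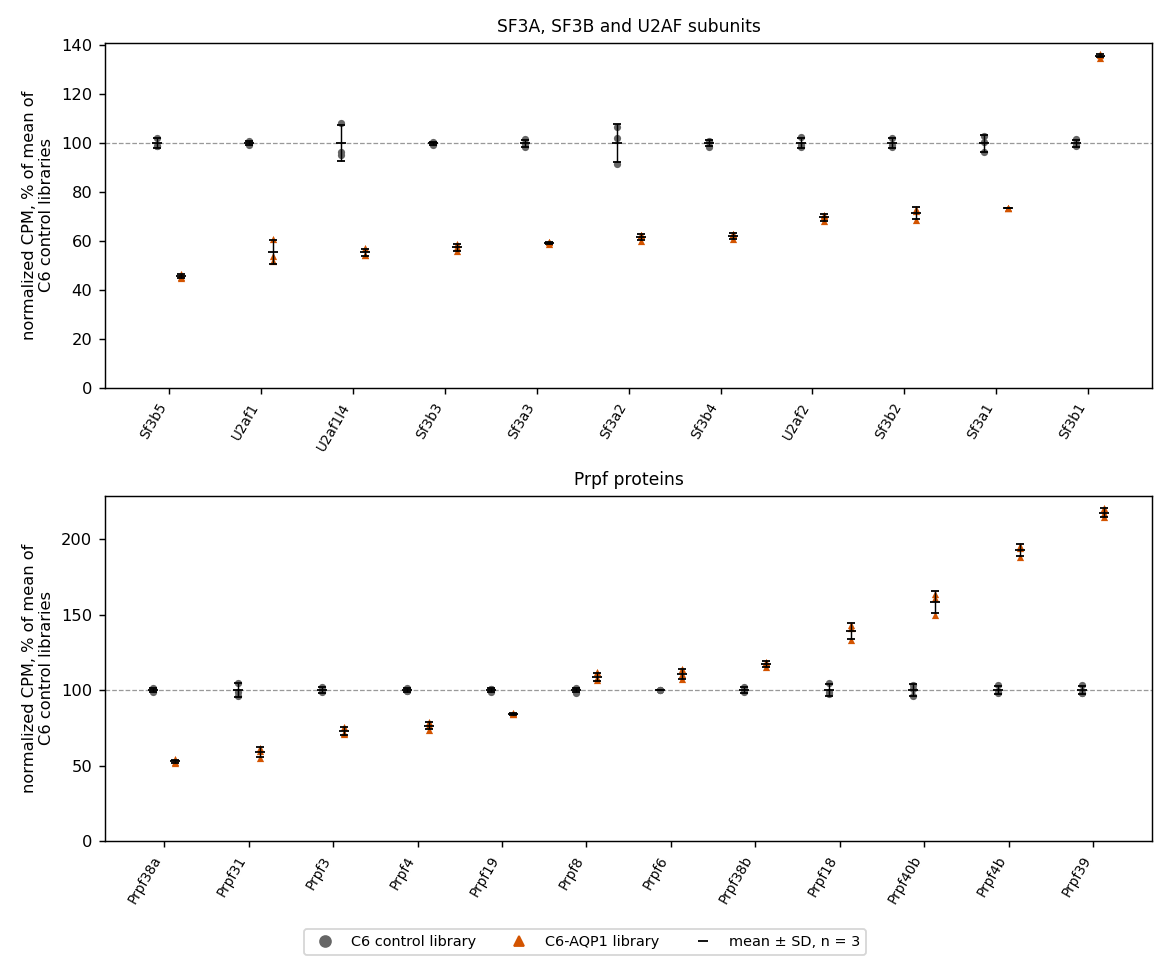
Normalized CPM of each library as a percentage of the mean of the C6 control libraries (y axis) for SF3A, SF3B and U2AF genes (top, without Sf3b6) and 12 Prpf genes (bottom). Circles are C6 control and triangles C6-AQP1 libraries, with the mean and SD of 3 libraries. Sf3b1 stands above 100% while the other genes of the upper plot stand below it, and the Prpf genes run from 52.7% for Prpf38a to 218% for Prpf39.

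Of the SR proteins, 8 fell and 2 rose, and none was a DEG. Srsf7, which has a zinc knuckle beside its RNA recognition motif, had the largest fall, with 51.8, 47.1 and 46.3 CPM in C6-AQP1 and 85.0, 90.5 and 84.8 CPM in C6 control cells and a log2 fold change of -0.86 (edgeR, adjusted p = 1.1e-13, standard error 0.04). Srsf3, the smallest SR protein and a close relative of Srsf7, had 273, 268 and 268 CPM in C6-AQP1 and 419, 422 and 416 CPM in C6 control cells and a log2 fold change of -0.64 (edgeR, adjusted p = 1.2e-17). Both belong to the SR proteins that couple splicing to mRNA export. Srsf1, the founding member, had 315, 312 and 314 CPM in C6-AQP1 and 449, 449.6 and 443 CPM in C6 control cells, a log2 fold change of -0.51. Its relative Srsf9 had 42.0, 42.5 and 43.6 CPM in C6-AQP1 and 60.5, 63.8 and 60.7 CPM in C6 control cells, a log2 fold change of -0.53. In these 4 genes no C6-AQP1 library came near a control library, and the C6-AQP1 means were between 55.8% and 70.1% of the control means. Srsf2 and Srsf10, an SR protein that represses splicing when it loses its phosphates, both had a log2 fold change of -0.46.

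Another group of SR proteins changed little. Srsf4, Srsf5 and Srsf6 are relatives with a pair of RNA recognition motifs, and their log2 fold changes were -0.21, -0.15 and 0.07. Srsf6 had 214, 221 and 219 CPM in C6-AQP1 and 212, 204 and 207 CPM in C6 control cells (edgeR, adjusted p = 0.00684). The gap between its groups was small, and the adjusted p reached 0.0419 over the alternatives. Srsf11, an SR-related protein, had 129.8, 124 and 128 CPM in C6-AQP1 and 109, 115 and 113 CPM in C6 control cells, a log2 fold change of 0.18 (edgeR, adjusted p = 5.9e-06). Together the 10 SR genes had 1553, 1554 and 1576 CPM in C6-AQP1 and 2021, 2038 and 2029 CPM in the controls, so the sum was 76.9% of the control sum.

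Of the 20 hnRNP genes 19 fell, and the largest fall among those with many reads was 1.90-fold, that of Hnrnpab. Hnrnpab, which binds RNA and single-stranded DNA, had 243, 239 and 255 CPM in C6-AQP1 and 471, 463 and 468 CPM in C6 control cells, a log2 fold change of -0.93 (edgeR, adjusted p = 2.9e-19, standard error 0.02). Hnrnpm, which binds GU-rich sites, had 169.8, 172 and 173 CPM in C6-AQP1 and 307, 302 and 310.0 CPM in C6 control cells, a log2 fold change of -0.84. Hnrnpl, which binds CA repeats, had 306, 304 and 312 CPM in C6-AQP1 and 515, 528 and 520.4 CPM in C6 control cells, a log2 fold change of -0.76. Its paralogue Hnrnpll fell by a smaller factor. Hnrnpll had 62.8, 64.2 and 62.5 CPM in C6-AQP1 and 98.5, 99.2 and 94.7 CPM in C6 control cells, a log2 fold change of -0.62. The groups were far apart for all 4 genes, with C6-AQP1 means between 52.6% and 64.8% of the control means.

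The A and B family, which antagonises SR proteins at many exons, moved together. Hnrnpa1 had 459, 432 and 417 CPM in C6-AQP1 and 705, 686 and 664 CPM in C6 control cells. Hnrnpa2b1 had 416, 385 and 381 CPM in C6-AQP1 and 657, 629 and 616 CPM in C6 control cells. The main gene of Hnrnpa3 (ENSRNOG00000052968) had 274, 247 and 239 CPM in C6-AQP1 and 456, 443 and 423 CPM in C6 control cells. In all 3 genes replicate 1 was the highest library of both groups, and their log2 fold changes were -0.65, -0.69 and -0.80 (edgeR, adjusted p = 8.8e-07, 6.5e-07 and 1.0e-04). The other gene listed as Hnrnpa3 (ENSRNOG00000027006) had 12, 10 and 9 counts in C6-AQP1 and 17, 42 and 32 in the controls, or 0.615, 0.242 and 0.213 and 0.763, 0.812 and 0.626 CPM. It was a DEG with a log2 fold change of -1.23 (edgeR, adjusted p = 0.00376), but the log2 fold change was -0.96 without C6-AQP1 replicate 3, under 2-fold. Genes of this family have near-identical copies that can share reads, so this small count is uncertain.

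Hnrnpf and Hnrnph1 bind runs of G. Hnrnpf had 419.7, 410.1 and 408 CPM in C6-AQP1 and 677, 651 and 661 CPM in C6 control cells, a log2 fold change of -0.68. Hnrnph1 had 274, 261 and 259 CPM in C6-AQP1 and 409.9, 407 and 396 CPM in C6 control cells, a log2 fold change of -0.61. Their relatives Hnrnph2 and Hnrnph3 had log2 fold changes of -0.39 and -0.33. Hnrnpk, which binds runs of C, had 506, 503 and 514 CPM in C6-AQP1 and 801, 802 and 789 CPM in C6 control cells (log2 fold change -0.65, adjusted p = 1.9e-18 from edgeR). Hnrnpd, also known as a factor of AU-rich mRNA decay, had 153, 142 and 147 CPM in C6-AQP1 and 232, 233 and 231 CPM in C6 control cells, a log2 fold change of -0.66. Its paralogue Hnrnpdl was the single hnRNP that rose, with 199, 190.2 and 193 CPM in C6-AQP1 and 181, 177 and 184 CPM in C6 control cells, a log2 fold change of 0.10 (edgeR, adjusted p = 8.9e-04, standard error 0.02). The groups did not overlap in either of these paralogues. Smaller falls were those of Hnrnpr at -0.46, Hnrnpu, a protein of the nuclear scaffold, at -0.43, its relatives Hnrnpul1 and Hnrnpul2 at -0.32 and -0.27, and Hnrnpc, which binds runs of U, at -0.19. The summed level of the 20 hnRNP genes was 5094, 4931 and 4928 CPM in C6-AQP1 and 7552, 7449.9 and 7418 CPM in the controls. In 14 of the 20 genes replicate 1 was the highest C6-AQP1 library, and in 9 of 20 it was the highest control library. Over all 12121 genes these numbers were 4209 and 4424. Without replicate 1 of both groups, 19 hnRNP genes fell and 1 rose, with a median log2 fold change of -0.64.

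**Figure D4:**
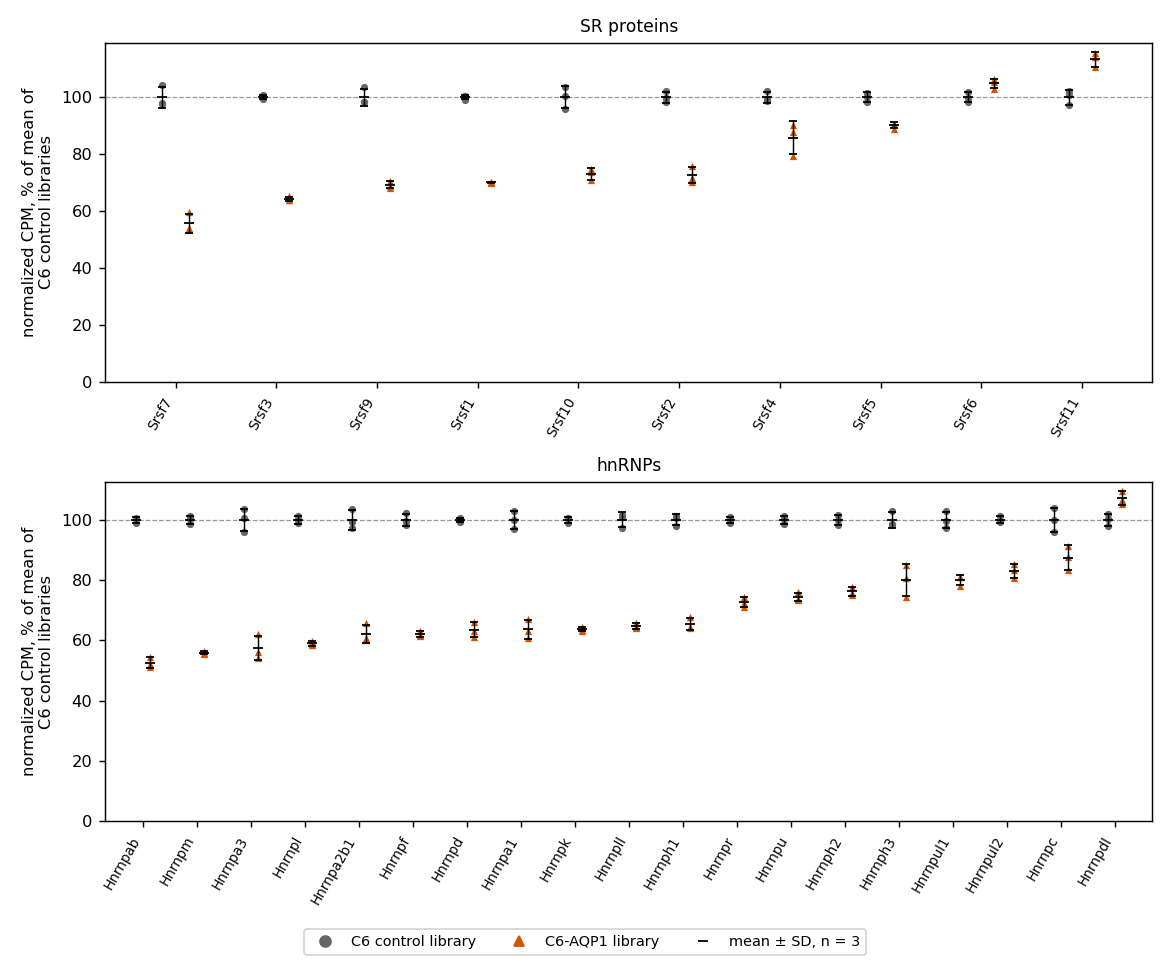
Normalized CPM of each library as a percentage of the mean of the C6 control libraries (y axis) for 10 SR proteins (top) and 19 hnRNP genes (bottom, without the rarely counted copy of Hnrnpa3). Circles are C6 control and triangles C6-AQP1 libraries, with the mean and SD of 3 libraries. The SR genes run from 55.8% for Srsf7 to 113% for Srsf11, and the hnRNP genes from 52.6% for Hnrnpab to 107% for Hnrnpdl.

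Splicing genes outside the symbol rule were counted in lists by role. Each count stands against 40.7% of all tested genes that fell and 40.8% that rose. Of 27 listed genes of other snRNP proteins, 19 fell and 2 rose, with a median log2 fold change of -0.37. Among the falls were Ppih, a cyclophilin of the tri-snRNP, with a log2 fold change of -1.18, Txnl4a, a small U5 protein, with -1.17, and Phf5a, a small subunit of SF3B, with -1.01. The rises were Pdcd7 and Rnpc3, proteins of the minor spliceosome, at 0.35 and 0.32. Zcrb1, Snrnp25 and Zmat5, also of the minor spliceosome, fell, at -0.55, -0.49 and -0.37. Its proteins Snrnp48 and Snrnp35 did not pass the test. Of 26 genes of the Prp19 complex and the catalytic steps, 18 fell and 2 rose, with a median of -0.31. The largest changes were those of Ppie at -0.83, Wbp11 at -0.75 and Bud31 at -0.72, and the rises were Dhx8 at 0.14 and Slu7 at 0.11. The snRNP assembly genes, which load Sm rings on RNA or modify, transport and store snRNPs, had 13 falls and no rise among 17, with a median of -0.42. Smn1, the SMN protein, had a log2 fold change of -0.65, and Wdr77 and Clns1a, partners of the methylase Prmt5, both had -0.60.

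The exon junction complex, which marks spliced mRNA, and its export partners had 10 falls and 3 rises among 15 genes, with a median of -0.56. The helicase Ddx39a and the export adaptor Alyref had log2 fold changes of -1.36 and -1.28, and the core subunit Magohb -1.10, while Pnn, Ddx39b and Acin1 had 0.62, 0.22 and 0.05. Acin1 passed the test narrowly (edgeR, adjusted p = 0.0434), and with DESeq2 the rises of this list numbered 2. Ddx39a and Ddx39b are close paralogues, and how the division of shared reads bears on their values was not tested.

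SR kinases and SR-related genes had more rises than falls. Of 24 listed genes, 14 rose (58.3%) and 8 fell (33.3%), against 40.8% and 40.7% of all tested genes, with a median log2 fold change of 0.17. Clk1, a kinase that phosphorylates SR proteins in the nucleus, had 164, 157 and 154 CPM in C6-AQP1 and 46.4, 41.5 and 40.2 CPM in C6 control cells, a log2 fold change of 1.903 (edgeR, adjusted p = 1.2e-14, standard error 0.04). Clk4, its closest paralogue, had 11.8, 11.8 and 10.9 CPM in C6-AQP1 and 4.26, 4.54 and 3.81 CPM in C6 control cells and a log2 fold change of 1.45 (edgeR, adjusted p = 5.6e-12). The groups were far apart for both kinases. Clk2 and Clk3, kinases of the same family, fell, with log2 fold changes of -0.27 and -0.17. Srrm2, a large scaffold of nuclear speckles, had a log2 fold change of 0.99. The largest falls were those of Tra2b, an SR-like regulator, at -0.79, Tnpo3, the importin of SR proteins, at -0.54, and Srpk1 at -0.49. Srpk1 is a kinase that phosphorylates SR proteins in the cytoplasm, and its relative Srpk2 rose, at 0.19.

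**Figure D5:**
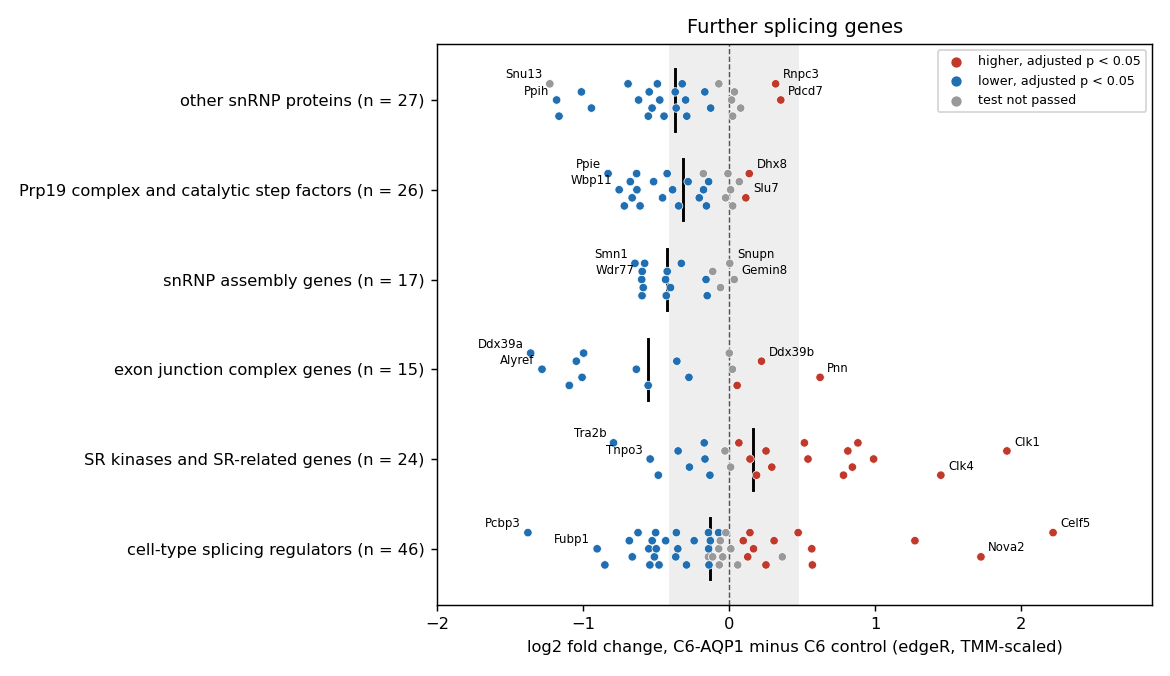
Log2 fold changes (x axis) of splicing genes outside the symbol rule, by list (y axis). Each point is a gene, coloured by the call, the black bar is the median of the list, and the dashed line and grey band are the median and the interquartile range of all 12121 genes. Only the SR kinases and SR-related genes have a median above 0, at 0.17, and Clk1 and Clk4 lie at 1.903 and 1.45.

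The promoters of the members were searched for short motifs of the E2F, FOXO4 and MAZ transcription factors, which the study names. Of 80 member symbols, 72 had a sequence in the RefSeq table (GRCr8), and the 250 bases before the start were read on both strands. An E2F motif, written as TTTGGCGC, TTTCGCGC or TTTCCCGC, was found in 5 of the 72 (6.94%), against 3.18% of 8636 listed symbols. The 5 were Snrpd2, Prpf38a, Srsf10, U2af1 and Hnrnpul1, all among the genes that fell, as were 58 of the 72. A FOXO4 motif, TTGTTT, was in 9 of 72 (12.5%), against 12.5% of the listed symbols. A MAZ motif, GGGAGGG, was in 17 of 72 (23.6%), against 25.5%. A match of letters is no evidence of binding, and 5 of the 58 promoters of members that fell held this E2F motif (8.62%).

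The matches to the E2F motif are shown because E2F was the motif whose share was higher in the members than in all listed symbols. Each line gives 60 bases 5′ to 3′ on the gene's strand with the match in capitals, and GCGGGAAA is TTTCCCGC read from the other strand. The windows on GRCr8 are chr1:87926178-87926237 on the plus strand for Snrpd2, chr5:128552937-128552996 on the minus strand for Prpf38a, chr5:153372234-153372293 on the plus strand for Srsf10, chr20:9755285-9755344 on the minus strand for U2af1 and chr1:90390561-90390620 on the minus strand for Hnrnpul1.
Snrpd2: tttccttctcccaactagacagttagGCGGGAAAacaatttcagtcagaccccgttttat
Prpf38a: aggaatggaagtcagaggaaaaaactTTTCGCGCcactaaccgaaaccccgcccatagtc
Srsf10: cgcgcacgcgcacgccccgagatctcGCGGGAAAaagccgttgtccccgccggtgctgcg
U2af1: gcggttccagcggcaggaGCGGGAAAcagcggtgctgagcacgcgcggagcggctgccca
Hnrnpul1: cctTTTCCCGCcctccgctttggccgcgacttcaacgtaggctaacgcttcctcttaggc

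The log2 fold changes of these 5 genes were -0.90, -0.93, -0.46, -0.87 and -0.32, and so ran from small to large falls. In base composition, the 72 member promoters had a median GC content of 57.6%, against 60.8% for all listed symbols. Those of the Sm proteins and LSm2 to LSm8 had a median of 54.1%, and those of the SR proteins 65.2%.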

How the data were processed

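RNA-seq was done on 3 C6-AQP1 and 3 C6 control libraries. Per the methods and the submitters' processing notes, reads were checked with FastQC 0.11.2, trimmed with Trimmomatic 0.36, aligned to the rat genome build rn6 with STAR 2.5.1b and quantified with RSEM 1.2.29, and the authors deposited expected counts per gene for 12121 genes that passed a filter on mean TPM. The gene annotation and the strand setting are not given in the sources used here. RSEM divides reads that fit several genes, so near-identical copies share them, and cDNA was amplified before library preparation. The labels describe single reads and the methods paired ones.

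The deposited values were rounded to integers and fitted on all 12121 genes with edgeR 4.0.16 in R 4.3.3 (TMM, robust quasi-likelihood, common biological coefficient of variation 2.97%), with Benjamini-Hochberg adjustment. DEGs were genes with an adjusted p under 0.05 that changed by more than 2-fold. Alternatives were DESeq2 1.42.0, limma-voom (limma 3.58.1), other scalings, a filter of at least 10 counts in 3 libraries, a replicate block, and fits without single libraries or without both replicate 1 libraries. The fit was checked on simulated data. Totals of 19054251 to 52725877 counts set the precision. Replicates differed by more than sampling noise (chi-square per degree of freedom 2.15 to 4.29). Levels were not divided by transcript length, so they are compared between groups and not between genes.

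Members and lists were chosen with earlier results of these data known, and class medians have no test. Values in every library were given for members past the test with an absolute log2 fold change of at least 0.5. They were also given for the largest and smallest changes of each class. In other lists, up to 3 rises and 3 falls were named, and genes related to these were added where they differed. The Sm copies were set apart from the other Snrp genes after the listing was seen. Promoter sequences came from RefSeq (GRCr8), matched by symbol. The values of 1 Prpf gene are not reported here on their own, though it is in the counts and medians.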

Additional observations from a re-analysis of the deposited data

How the results depend on the processing

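Of the 81 members, 77 kept their direction and their side of the threshold in every alternative run for them, and the exceptions were Snrpn, Lsm14b, Lsm6 and Snrpep2. There were 13 alternatives for 78 members and 12 for Sf3b6, Snrpd2l and Snrpep2, which the filter on low counts removed. Of the 14 DEGs in the lower direction, 10 were DEGs in every alternative, while Snrpf, Snrpg, Lsm6 and the second Hnrnpa3 gene were not, and the number ran from 11 (without C6-AQP1 replicate 3) to 14. With scaling to library totals alone, which moved the median of all genes to 0.05, the median log2 fold changes were -0.57 for the members, -0.61 for core snRNP proteins, -0.41 for SR proteins, -0.58 for hnRNPs, -1.10 for LSm2 to LSm8, -0.65 for SF3A and SF3B and 0.18 for Prpf genes, the DEGs in the higher direction numbered 2, and 1 snRNP assembly gene rose. Without replicate 1 of both groups, the medians were -0.63 for core snRNP proteins, -1.11 for Sm proteins and -0.68 for SF3A and SF3B. Leaving out 1 library at a time gave medians from -0.63 to -0.60 for the members, -0.70 to -0.60 for core snRNP proteins, -0.47 to -0.43 for SR proteins, -0.64 to -0.62 for hnRNPs, -1.23 to -1.13 for LSm2 to LSm8 and -0.72 to -0.67 for SF3A and SF3B. The log2 fold change of Snrpep2 was 0.75, from -2.53 without C6-AQP1 replicate 2 to 3.20 without C6 control replicate 2, on 3 and 2 counts over the groups. With the replicate block, 66 members fell and 11 rose. Same-numbered libraries had correlations of their deviations of 0.126, -0.0124 and 0.0651. Deviations within a group of 3 libraries depend on one another, so these values cannot settle what same-numbered libraries share. The labels give only the number, and replicate 1 was the shallowest of both groups. Few counts limit the results for Lsm6, Sf3b6, the Sm copies and the second Hnrnpa3 gene, and why these genes had so few was not tested.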

Other observations

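Regulators of splicing that are known for their work in particular cell types went both ways. Of 61 genes in this list 46 were listed, of which 24 fell (52.2%) and 12 rose (26.1%) by edgeR's quasi-likelihood test, against 40.7% and 40.8% of all tested genes, with a median log2 fold change of -0.13. With DESeq2, 22 fell and 10 rose, and with scaling to library totals alone 21 fell and 12 rose. Celf5, an RNA-binding protein of neurons, had 5.28, 5.57 and 5.41 CPM in C6-AQP1 and 1.12, 1.28 and 1.08 CPM in C6 control cells, a log2 fold change of 2.22 (edgeR, adjusted p = 5.6e-12, standard error 0.15). Nova2, another neuronal regulator, had 1.38, 0.920 and 1.21 CPM in C6-AQP1 and 0.314, 0.387 and 0.313 CPM in C6 control cells, a log2 fold change of 1.73 on few reads. Khdrbs3, a relative of Sam68, had 105, 103 and 98.2 CPM in C6-AQP1 and 41.6, 41.8 and 42.7 CPM in C6 control cells, a log2 fold change of 1.27. These were the 3 DEGs of the list in the higher direction, a smaller share of the 46 genes than the 9.74% of all tested genes. In each the groups lay apart. Of the relatives of Celf5 and Nova2, Celf2 rose at 0.14, Celf1 fell at -0.35, and Celf4 and Nova1 did not pass the test. Rbfox1 and Ptbp2, also known from neurons, fell at -0.13 and -0.14.

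The largest fall in the list was that of Pcbp3, a protein that binds runs of C, with 0.717, 0.945 and 0.898 CPM in C6-AQP1 and 2.24, 2.44 and 2.15 CPM in C6 control cells and a log2 fold change of -1.38. Fubp1, which binds far upstream elements and RNA, had 70.1, 74.1 and 71.1 CPM in C6-AQP1 and 139.8, 133 and 133 CPM in C6 control cells, a log2 fold change of -0.90. Ybx1, the cold-shock protein YB-1, had 357, 373 and 374 CPM in C6-AQP1 and 665, 659 and 669 CPM in C6 control cells, a log2 fold change of -0.85. In the falls, too, the groups did not overlap. The summed level of the 46 genes was 4789.9, 4784 and 4750.1 CPM in C6-AQP1 and 6018, 5979 and 5939.6 CPM in C6 control cells.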
